A study of Rattus norvegicus with 6 samples.

Results

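Myelin structural and lipid genes were followed in 6 rat (Rattus norvegicus) RNA-seq libraries labelled as primary cultured microglia. The 9 genes were taken from a list of proteins and a lipid enzyme known from mature myelin. They were Mbp, Mobp, Cldn11, Mal, Cnp, Mag, Mog, Opalin and Ugt8. All 9 were found among the 16876 gene symbols of the count table, and all 9 passed the filter on low counts, which left 11679 tested genes. One group of 3 libraries had been kept for 24 h with PSNPs, which are polystyrene nanoplastics, and the other group of 3 for the same time with IR-813, a dye that fluoresces in the near infrared. The protocol describes an orbital shaker step that detached the microglia from confluent co-cultures grown with serum. The labels name no strain, age or dose and no untreated library. The sample titles call the comparison libraries IR-813, while their columns in the deposited tables are named con, and whether these cells received the dye or only a control is not settled beyond the titles. Every direction is therefore that of PSNPs relative to IR-813, and an effect of one treatment cannot be told apart from an opposite effect of the other. Separate cultures or animals are not stated for the replicates, so p-values measure the spread between these libraries, which may be technical.

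Myelin is the layered membrane that oligodendrocytes wrap around axons in the central nervous system. Its compact part is held together by basic proteins on the cytoplasmic face and by proteins that span the membrane, and tight junction strands seal the layers. Adhesion and cytoskeletal proteins sit in the less compact parts near the axon and in the channels of cytoplasm, and the membrane is rich in galactosylceramide and its sulfated form. Transcription of these genes rises when progenitors leave the cell cycle and mature, under factors that include SOX10, OLIG2 and MYRF. Microglia are not known to make myelin, although they take it up, and the comparison asks how transcripts of another glial cell in these libraries differed between the treatments.

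The libraries held between 19166605 and 22553507 counts, of which the 9 genes together took 0.204% to 0.254% with PSNPs and 0.341% to 0.413% with IR-813. The labelled cell type was checked against its markers on the deposited log2 scale, which divides each count by a gene-specific factor and is used here as a stand-in for a level per length. There Mbp ranked between 113 and 128 among all genes with PSNPs and between 70 and 94 with IR-813. The microglia marker Aif1 ranked between 2268 and 3398 with PSNPs and between 762 and 1211 with IR-813, and P2ry12 between 10155 and 10547 with PSNPs and between 8069 and 8712 with IR-813. Another microglia marker, Csf1r, ranked between 1562 and 2110 with PSNPs and between 969 and 1368 with IR-813, and the astrocyte marker Gfap between 74 and 97 with PSNPs and between 57 and 100 with IR-813. In every library Mbp and Gfap thus ranked above these 3 microglia markers. The summed level of the microglia and neuron markers was lower in every PSNPs library, while that of the astrocyte markers overlapped between the treatments. It was 931.3 to 1132 CPM (counts scaled to a common library size) with PSNPs and 1680 to 2275 CPM with IR-813 for 14 microglia markers, of which 11 were lower and 0 higher. One of them, Fcrl2, was matched to the listed Fcrls through a synonym and had 139.1 CPM with PSNPs and 589.1 CPM with IR-813 on average. Without it the sum of the other 13 was 812.3 to 990.4 CPM with PSNPs and 1198 to 1581 CPM with IR-813, with 10 lower and 0 higher, an alternative chosen after seeing the data. For 14 neuron markers it was 167.5 to 201 CPM with PSNPs and 394.6 to 408.6 CPM with IR-813, with 9 lower and 0 higher of 12 tested. For 12 astrocyte markers it was 8401 to 9303 CPM with PSNPs and 6959 to 8864 CPM with IR-813, with 6 higher and 1 lower of 11 tested. The part of these shifts in the values of the myelin genes was not tested. Across all tested genes, marker or not, 20.1% were called lower and 20.9% higher. Without PSNPs replicate 3, 3591 genes were called higher and 3478 lower, against 2439 higher and 2351 lower with it.

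Of the 9 myelin genes, 8 were lower with PSNPs, 0 were higher, and Opalin did not pass the test (edgeR quasi-likelihood test, Benjamini-Hochberg adjusted p under 0.05 over all tested genes). Across all tested genes 41.0% were called, 20.1% lower and 20.9% higher. The median log2 fold change of the 9 genes was −0.81, beside −0.01 for all tested genes, and single values ran from −1.09 for Ugt8 to −0.33 for Opalin. The 3 PSNPs libraries lay below the 3 IR-813 libraries for each of the 8 called genes, which held for 31.4% of all tested genes. Fewer oligodendrocyte-lineage cells and less of these transcripts per cell cannot be told apart in bulk RNA. The level with PSNPs was between 46.9% and 74.7% of that with IR-813 for the 8 called genes. Ugt8 alone was called with a log2 fold change under −1, beside 8.81% of all tested genes. Without PSNPs replicate 1, or without IR-813 replicate 2, 5 of the 9 were called, and Mbp, Mog and Mobp were the genes that lost their call. With IR-813 replicate 1 or 3 left out it was 6, with PSNPs replicate 2 left out 7, and with PSNPs replicate 3 left out 8. Over all tested genes, 1909 of 11778 were lower without PSNPs replicate 1 and 1473 of 11771 without IR-813 replicate 2, against 2351 of 11679. Leaving out IR-813 replicate 1 or 3 gave 1571 and 1818 lower genes, and PSNPs replicate 2 or 3 gave 2144 and 3478.

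**Figure D1:**
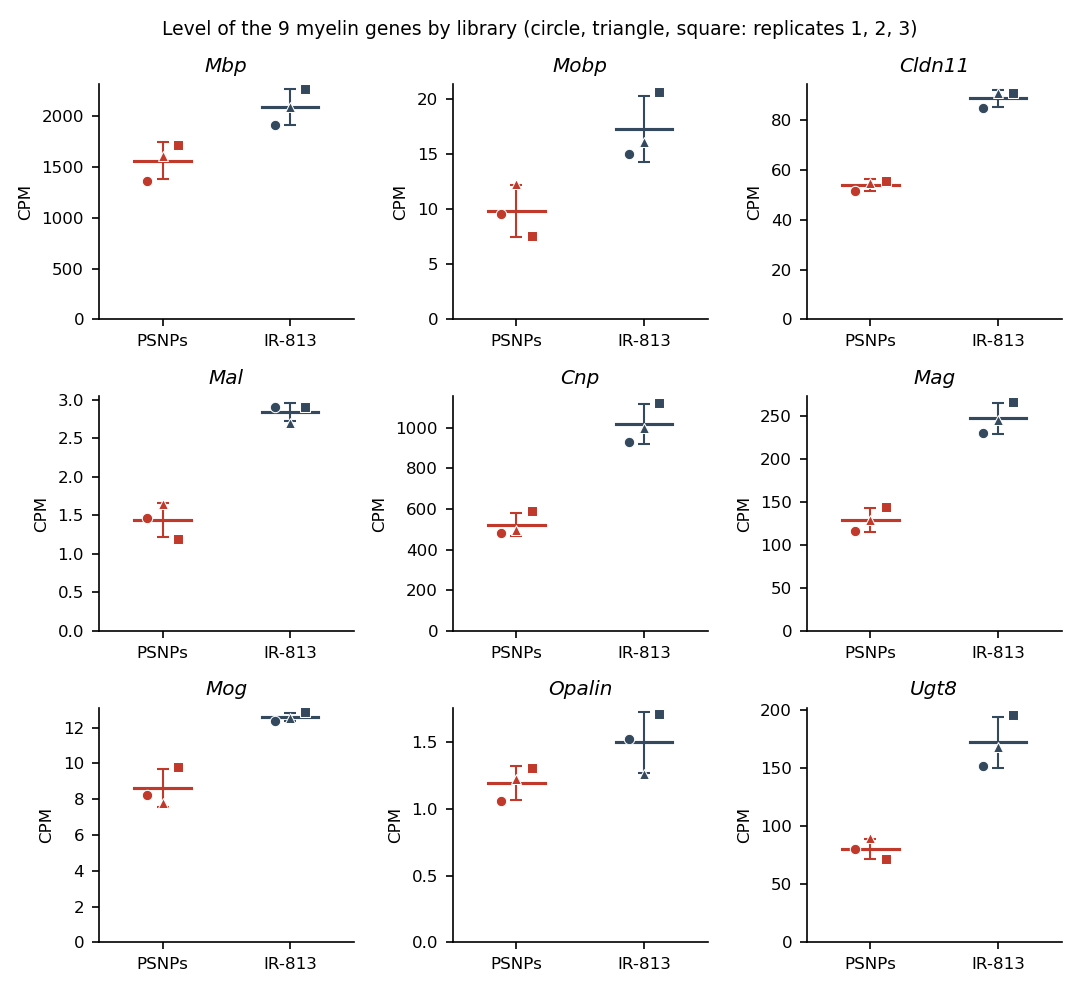
Level of each myelin gene in CPM on TMM-scaled library sizes (vertical axes, linear, from 0) in the 3 PSNPs and 3 IR-813 libraries; symbols are replicates, the horizontal line is the mean and the whisker the SD (n = 3 each). The PSNPs symbols lie below the IR-813 symbols in 8 panels, while in the Opalin panel the groups overlap.

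Compact myelin was represented by 4 genes. Mbp encodes myelin basic protein, which holds the cytoplasmic faces of the membrane together. It had 1360, 1609 and 1718 CPM in PSNPs replicates 1 to 3, against 1917, 2087 and 2266 CPM in IR-813 replicates 1 to 3. The groups did not overlap, and the highest PSNPs library, replicate 3, lay close under the lowest IR-813 library, replicate 1. Its log2 fold change was −0.42 ± 0.12 (estimate ± SE, edgeR adjusted p = 0.0329). This call was lost in 6 of 12 alternatives, more than for any other of the 8 genes. The adjusted p was 0.101 without PSNPs replicate 1 and 0.0702 without PSNPs replicate 2. Leaving out IR-813 replicate 1, 2 or 3 gave 0.0604, 0.108 and 0.101, and limma on the deposited log2 values gave 0.0559. Across the alternatives the adjusted p spanned 0.0034 to 0.108, and the direction did not change. The Mbp locus also gives longer transcripts, known as golli, in other cell types, and counts per gene symbol do not separate them.

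Mobp encodes a small basic protein on the cytoplasmic face of compact myelin. It had 9.56, 12.3 and 7.62 CPM in the PSNPs libraries, against 15.03, 16.12 and 20.68 CPM in the IR-813 libraries. The libraries of each group were wide apart, with PSNPs replicate 3 lowest and IR-813 replicate 3 highest. The log2 fold change was −0.81 ± 0.21 (edgeR adjusted p = 0.0199), and the call was lost in 3 of 12 alternatives, whose adjusted p spanned 0.00157 to 0.0702. It was 0.0587 without PSNPs replicate 1, and 0.0543 and 0.0702 when IR-813 replicate 2 or 3 was left out. Cldn11 encodes claudin-11, the tight junction protein of the myelin sheath. It had 51.4, 54.7 and 55.7 CPM with PSNPs, against 84.8, 90.6 and 90.8 CPM with IR-813. Both groups were tight, so that its log2 fold change of −0.72 had the smallest standard error of the 9, 0.08 (edgeR adjusted p = 0.0008). Mal encodes a proteolipid of membrane rafts that sorts proteins to myelin. It had 32, 31 and 23 counts in the PSNPs libraries, or 1.47, 1.65 and 1.2 CPM, against 65, 58 and 63 counts, or 2.91, 2.7 and 2.91 CPM, in the IR-813 libraries. Despite these low counts the groups were far apart, at a log2 fold change of −0.98 ± 0.18 (edgeR adjusted p = 0.00533). On the deposited log2 scale, whose pseudocount understates low genes, the difference was −0.47.

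The genes of the less compact parts were Cnp and Mag. Cnp encodes a phosphodiesterase that keeps the channels of cytoplasm in myelin open and is made early in maturation. It had 483.7, 494.7 and 588.9 CPM with PSNPs, against 930.5, 996.8 and 1123 CPM with IR-813. Mag encodes the myelin-associated glycoprotein, an adhesion molecule that faces the axon. It had 116, 129 and 144 CPM with PSNPs, against 231, 246 and 266 CPM with IR-813. In both genes the replicates kept one order in each group, and every PSNPs library lay far below the lowest IR-813 library. The log2 fold changes were −0.96 ± 0.12 for Cnp (edgeR adjusted p = 0.00114) and −0.93 ± 0.11 for Mag (edgeR adjusted p = 0.000818). The log2 ratio of Cnp to Mag was 2.06, 1.94 and 2.03 with PSNPs and 2.01, 2.02 and 2.08 with IR-813, with overlapping groups (difference −0.03, exact permutation p = 0.7).

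Mog and Opalin encode membrane proteins that appear late, when the sheath is mature. Mog encodes the glycoprotein of the outermost myelin surface and had 8.23, 7.8 and 9.81 CPM with PSNPs, against 12.4, 12.5 and 12.9 CPM with IR-813. The IR-813 libraries lay within their counting error of each other, while PSNPs replicate 3 was higher than the other PSNPs libraries. Its log2 fold change was −0.55 ± 0.13 (edgeR adjusted p = 0.0141), and the call was lost in 3 of 12 alternatives, whose adjusted p spanned 0.000918 to 0.0608. It was 0.0501 without PSNPs replicate 1, and 0.0516 and 0.0608 when IR-813 replicate 1 or 2 was left out. Opalin encodes a transmembrane protein of the inner loop and paranode and had 23, 23 and 25 counts with PSNPs, against 34, 27 and 37 counts with IR-813. In CPM this was 1.06, 1.22 and 1.3 with PSNPs and 1.52, 1.26 and 1.71 with IR-813, and the groups overlapped. The log2 fold change was −0.33, with a 95% confidence interval from −0.82 to 0.16 (edgeR adjusted p = 0.236). The counting error of a single Opalin library, 20.6% with PSNPs and 17.6% with IR-813 on average, was close to the size of the difference, and the interval includes the median of the 9 genes but not the estimates of Ugt8, Mal, Cnp and Mag.

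Ugt8 encodes the transferase that makes galactosylceramide, the leading glycolipid of myelin. It had 80.1, 89.4 and 72.1 CPM with PSNPs, against 152, 168 and 195.8 CPM with IR-813. PSNPs replicate 3 was lowest and IR-813 replicate 3 highest, and the groups were far apart. At −1.09 ± 0.13 it had the largest fall of the 9 genes (edgeR adjusted p = 0.000874).

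**Figure D2:**
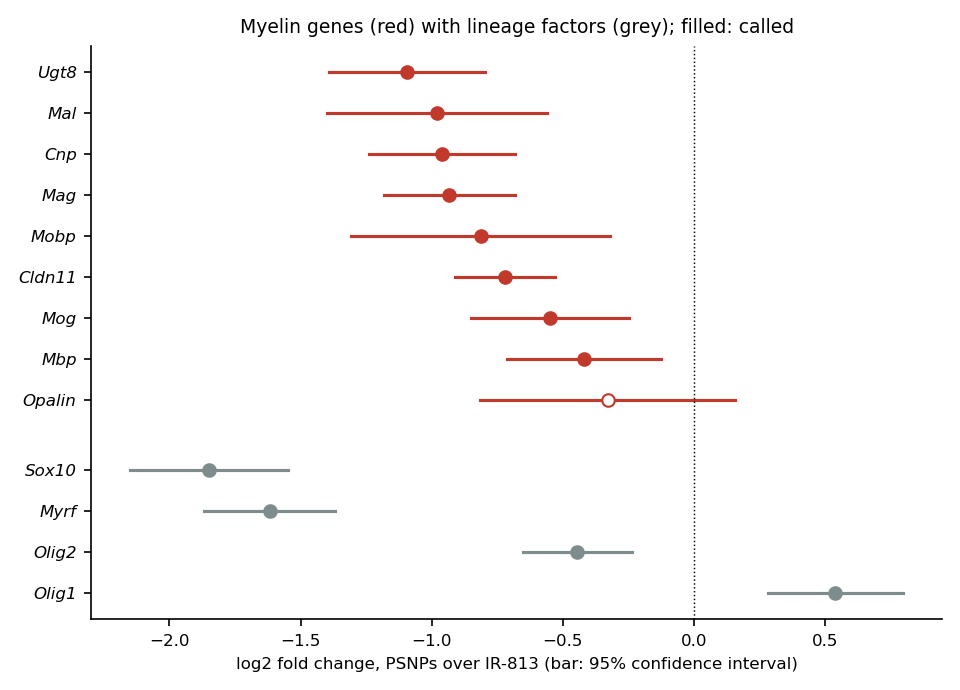
Log2 fold change of PSNPs over IR-813 (horizontal axis) from edgeR for the 9 myelin genes in red and for Sox10, Myrf, Olig2 and Olig1 in grey; bars are 95% confidence intervals and filled points are called genes. Ugt8, Mal, Cnp and Mag lie near −1, Mbp and Mog near −0.5, Sox10 and Myrf below −1.5, and Olig1 above 0.

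The order of levels between genes was read on the deposited log2 scale only. In 5 of the 6 libraries the order was Mbp, Cnp, Mag, Cldn11, Ugt8, Mog, Mobp, Mal and Opalin, and in IR-813 replicate 3 Ugt8 stood above Cldn11. The deposited level of Mbp averaged 9.68 ± 0.197 with PSNPs and 10.1 ± 0.117 with IR-813 (SD, n = 3 each), and that of Cnp 7.89 ± 0.184 with PSNPs and 8.84 ± 0.135 with IR-813. Cldn11 (5 ± 0.0822) and Ugt8 (4.61 ± 0.128) were apart with PSNPs, whereas with IR-813 Cldn11 (5.7 ± 0.0546) and Ugt8 (5.66 ± 0.178) did not differ beyond their spread. The deposited levels of Mog, Mobp, Mal and Opalin, the lower end of the order, averaged between 0.543 and 2.79 with PSNPs and between 0.649 and 3.27 with IR-813.

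The shares of the members in their sum differed between the groups for some genes. Mbp made up 64.4%, 67% and 66.1% of the summed CPM of the 9 genes in the PSNPs libraries, against 57.3%, 57.6% and 56.9% in the IR-813 libraries. Every PSNPs library was higher than every IR-813 library, by 8.57 percentage points on average (exact 2-sided permutation p = 0.1, the smallest that 3 against 3 libraries can give). The share of Cnp was 22.9%, 20.6% and 22.7% with PSNPs and 27.8%, 27.5% and 28.2% with IR-813, and that of Mag averaged 5.47% with PSNPs and 6.79% with IR-813. For Ugt8 it was 3.79%, 3.73% and 2.77% with PSNPs and 4.54%, 4.64% and 4.92% with IR-813. These shares do not depend on how the libraries are scaled. They are shares of CPM, which is not corrected for gene length, so they do not give relative numbers of transcripts. Within the myelin genes, Mbp thus fell less than Cnp, Mag and Ugt8, and the groups did not overlap in any of these 4 shares. Shares of one sum depend on each other, so these are not separate results. The groups were also apart for 2 genes of low counts (exact permutation p = 0.1). Mal averaged 0.0615% with PSNPs and 0.0782% with IR-813, and Opalin 0.0504% with PSNPs and 0.0411% with IR-813. The log2 ratio of Mog to Mag was higher with PSNPs (−3.82, −4.05 and −3.88) than with IR-813 (−4.22, −4.3 and −4.37), again at exact permutation p = 0.1. For Mog, Mobp and Cldn11 the shares of the sum overlapped between the groups (exact permutation p = 0.5, 0.7 and 0.2). Mobp, at 0.42% with PSNPs and 0.471% with IR-813 on average, stood at 0.453% and 0.513% in PSNPs replicates 1 and 2 and at 0.293% in replicate 3, and the difference changed sign without that library.

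The replicates of a group varied together for some genes and not for others. In the PSNPs group, replicate 3 was the highest library for Mbp, Cldn11, Cnp, Mag, Mog and Opalin. For Cldn11 and Opalin this was by less than their counting error. The same library was the lowest for Mobp, Mal and Ugt8. In the IR-813 group, replicate 3 was the highest library for all 9 genes, for Mal, Cldn11, Mog and Opalin by less than their counting error. The coefficient of variation of Mbp was 11.8% with PSNPs and 8.34% with IR-813, far above its counting error of 0.569% and 0.469%. For Mal it was 15.6% with PSNPs and 4.27% with IR-813, under its counting error of 18.8% and 12.7%, so the spread of this gene was no larger than counting gives.

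The sequence before the transcript start was read for the members because 8 of them were lower with PSNPs, as were Sox10 and Myrf, whose values follow. Windows came from RefSeq (build GRCr8) and were matched by symbol for 8 of the 9 genes, with 2 starts for Mbp. They were not used to place any read, since the submitters' processing notes name mRatBN7.2. The 250 bases before the start were searched on both strands for CTGGCAC or CTGGTAC, the core that MYRF binds, for ACAAAG or ACAATG, the core of SOX proteins, and for CAGCTG, an E-box of OLIG2 and related factors. The window of Mobp is shown for its run of SOX cores, and those of Cnp, Mag and Opalin because they hold both a MYRF and a SOX core. They are given 5′ to 3′ on the strand of the gene, with matches in capitals. They lie at chr8:128746982-128747231, plus strand, for Mobp, at chr10:86011254-86011503, plus strand, for Cnp, at chr1:95291045-95291294, minus strand, for Mag, and at chr1:249858191-249858440, minus strand, for Opalin.
Mobp: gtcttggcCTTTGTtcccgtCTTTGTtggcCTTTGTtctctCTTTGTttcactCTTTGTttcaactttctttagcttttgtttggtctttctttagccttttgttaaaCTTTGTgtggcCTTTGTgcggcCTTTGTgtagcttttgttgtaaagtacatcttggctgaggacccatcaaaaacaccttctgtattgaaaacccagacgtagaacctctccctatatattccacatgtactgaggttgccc
Cnp: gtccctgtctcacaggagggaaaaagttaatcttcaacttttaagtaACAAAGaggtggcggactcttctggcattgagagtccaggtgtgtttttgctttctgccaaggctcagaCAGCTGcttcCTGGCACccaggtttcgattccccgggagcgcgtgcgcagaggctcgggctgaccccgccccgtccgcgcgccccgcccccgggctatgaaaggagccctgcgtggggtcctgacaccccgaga
Mag: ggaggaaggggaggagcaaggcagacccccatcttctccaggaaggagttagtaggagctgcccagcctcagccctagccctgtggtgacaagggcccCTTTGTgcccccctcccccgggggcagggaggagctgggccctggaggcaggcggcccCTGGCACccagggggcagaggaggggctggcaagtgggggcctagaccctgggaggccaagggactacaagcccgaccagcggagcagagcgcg
Opalin: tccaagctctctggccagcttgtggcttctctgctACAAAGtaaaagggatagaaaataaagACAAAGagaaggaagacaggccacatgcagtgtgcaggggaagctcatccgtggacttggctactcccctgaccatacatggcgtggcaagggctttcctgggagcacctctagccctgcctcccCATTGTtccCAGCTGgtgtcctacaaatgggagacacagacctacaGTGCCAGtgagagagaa

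The window of Mobp held 8 SOX cores, all read on the minus strand (CTTTGT as printed) and all in its distal part, from position −242 to −115 relative to the start. Only 2 of all 33469 windows of this length held as many, that of Mobp among them. The threshold of 8 was itself the highest count in any window of the members. The cores recur in a T-rich, repeated stretch, so they may not be independent matches. Cnp and Mag each held 1 MYRF core, as CTGGCAC, from −124 to −118 in Cnp and from −94 to −88 in Mag. In both it was followed by CC, and a SOX core lay further upstream. Opalin had 3 SOX cores, an E-box and a MYRF core (GTGCCAG as printed). In all, 5 of the 9 windows of these genes had a MYRF core, which 5.48% of all windows held. They were those of Mag, Opalin, Cldn11, Mal and Cnp. A SOX core was found in 5 of the 9, beside 25.3% of all windows, and CAGCTG in 3 of the 9, beside 12% of all windows. The windows of all genes were not matched to these in base content, and enrichment was not tested. Ugt8, the gene with the largest fall, had none of these motifs in a window of 81.2% G and C. Cnp and Opalin had matches to all 3 motifs, and of these Cnp was called lower and Opalin was not called. The motifs were picked with the sequences in view, a match is not a binding site, and the windows say nothing of enhancers further away.

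**Figure D3:**
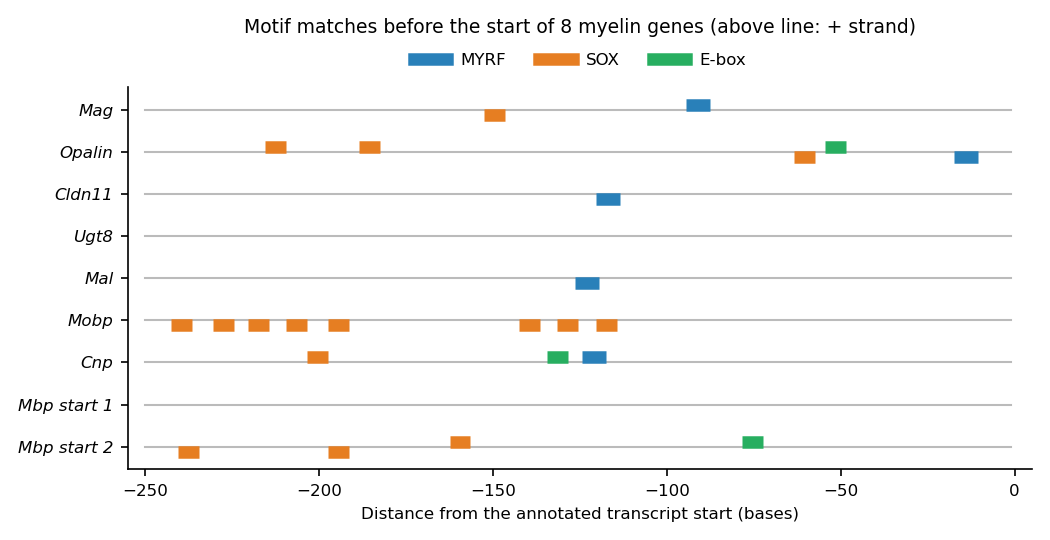
Motif matches in the 250 bases before the annotated start (horizontal axis, bases) of 8 myelin genes, with 2 starts for Mbp; blocks above a line are on the plus strand of the gene and blocks below it on the minus strand. Mobp carries a row of 8 SOX cores, MYRF cores appear in Mag, Opalin, Cldn11, Mal and Cnp, and Ugt8 and the first start of Mbp show no match.

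The transcription factors of the lineage did not move by one amount. Sox10, which drives myelin genes together with MYRF, had 43.6, 45.9 and 56.0 CPM with PSNPs, against 159, 172 and 193 CPM with IR-813. Its log2 fold change was −1.85 ± 0.13 (edgeR adjusted p = 0.000152). Myrf, the factor needed for mature myelin gene expression, had 82.7, 91.7 and 73.0 CPM with PSNPs, against 240.3, 250.0 and 269 CPM with IR-813 (log2 fold change −1.62 ± 0.11, edgeR adjusted p = 0.000129). In point estimate both factors fell more than any of the 9 myelin genes. Olig2, which specifies the lineage, fell by 0.44 ± 0.09 on the log2 scale, and Olig1, its neighbour gene, rose by 0.54 ± 0.11 (edgeR adjusted p = 0.00733 and 0.00821).

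Within each library the summed CPM of the 9 myelin genes was set against these genes, and the direction of the difference depended on the gene. Over Sox10 the log2 ratio was 5.6, 5.71 and 5.54 with PSNPs and 4.4, 4.4 and 4.36 with IR-813, a difference of 1.23. Over Myrf it averaged 4.85 ± 0.267 with PSNPs and 3.85 ± 0.0442 with IR-813 (SD, n = 3 each), and PSNPs replicate 3 was highest. Over Olig1 it was 1.06, 1.2 and 1.07 with PSNPs and 2.2, 2.32 and 2.29 with IR-813, a difference of −1.16. In these 3 ratios the groups did not overlap, at the smallest exact permutation p of 0.1. Over Olig2 the groups overlapped, with 3.26, 3.27 and 3.51 with PSNPs and 3.48, 3.56 and 3.54 with IR-813 (difference −0.18, exact permutation p = 0.2). Against the sum of Olig1, Olig2 and Sox10, of which Olig1 is the largest part, the ratio averaged 0.781 ± 0.0619 with PSNPs and 1.55 ± 0.0469 with IR-813, a difference of −0.77 (exact permutation p = 0.1). The summed myelin level therefore fell less than Sox10 and Myrf and stood lower relative to Olig1, and a difference from Olig2 was not resolved. Mbp, the called member with the smallest fall, made up 56.9% to 67.0% of the summed CPM, so these ratios follow Mbp most. Without Mbp the difference from the summed factors was −1.09 (exact permutation p = 0.1). Ratios to single factors, Olig2 among them, were not taken without Mbp.

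**Figure D4:**
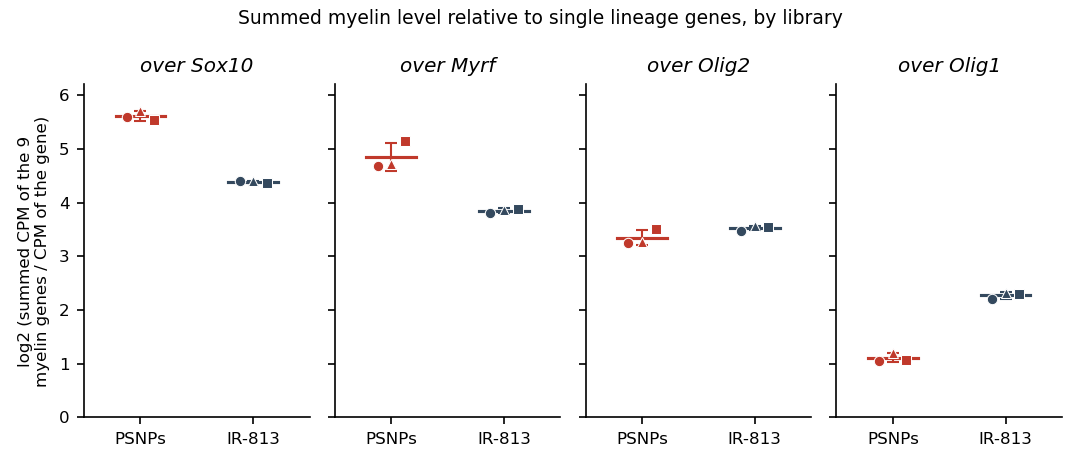
Log2 ratio of the summed CPM of the 9 myelin genes to the CPM of 1 gene (vertical axis, shared) in the PSNPs and IR-813 libraries; symbols are replicates, lines are means and whiskers SD (n = 3 each). The PSNPs libraries lie higher over Sox10 and Myrf, overlap with IR-813 over Olig2 and lie lower over Olig1.

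Other myelin proteins, as listed, were less uniform than the 9 genes. Both lists were chosen with earlier results of these data known, so the contrast depends on which genes they hold. Of 30 tested genes, 12 were lower, 8 higher and 10 did not pass, with a median log2 fold change of −0.18. Beside this, 20.1% of all tested genes were lower and 20.9% higher. Among the 12 lower genes, Sirt2 (−1.02 ± 0.11), Tmem125 (−0.96 ± 0.15) and Omg (−0.93 ± 0.16) fell about as much as Cnp and Mag in point estimate. These 3 were picked after their values were seen. The largest falls were those of Plxnb3, a semaphorin receptor gene (−2.29 ± 0.09), Tppp, which encodes a tubulin-binding protein of oligodendrocytes (−1.92 ± 0.42), and Nfasc, the neurofascin gene of the paranode (−1.58 ± 0.18). Tppp was lowest in PSNPs replicate 3, with 3.18 CPM beside 10.6 and 12.3 CPM in the other PSNPs libraries, against 32.3 to 33.7 CPM with IR-813. The largest rises were those of Gsn, which encodes the actin-severing protein gelsolin (1.35 ± 0.11), and of the tetraspanin genes Cd9 (0.79 ± 0.10) and Cd82 (0.76 ± 0.11). Gsn, Cd9 and Cd82 are also made by other cell types, astrocytes and microglia among them. Which cells made Plxnb3, Tppp and Nfasc cannot be told from bulk RNA either. By edgeR's test the adjusted p of these genes lay between 5.24e-05 and 0.0109.

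Enzymes and carriers of myelin lipids went both ways, with 8 lower and 7 higher of 25 tested and a median log2 fold change of −0.05. The calls over all tested genes also went both ways, at 20.1% lower and 20.9% higher. Among Cers2, Sptlc2, Sptlc1 and Degs1, genes of ceramide synthesis, none was called lower, whereas Fa2h, given after them, was. Cers2, a ceramide synthase gene, was not called, at −0.10 ± 0.08 (edgeR adjusted p = 0.335). Sptlc2 was not called either, at 0.0007 ± 0.135 (edgeR adjusted p = 0.997). Sptlc1 and Degs1, which encode a subunit of serine palmitoyltransferase and a ceramide desaturase, rose by 0.38 ± 0.08 and 0.32 ± 0.10 (edgeR adjusted p = 0.00908 and 0.0401). These genes were chosen after their values were seen. Fa2h, which adds the hydroxyl group to the fatty acids of galactosylceramide, had 6.57, 7.75 and 9.23 CPM with PSNPs, against 28.4, 33.4 and 33.4 CPM with IR-813 (log2 fold change −2.01 ± 0.15, edgeR adjusted p = 0.000195). Gal3st1, which adds the sulfate, had 7.03, 9.39 and 12.4 CPM with PSNPs, against 21.2, 26.9 and 28.0 CPM with IR-813 (−1.40 ± 0.22, edgeR adjusted p = 0.00308). Both fell more than Ugt8 in point estimate, and this difference was not tested. Sgms2, a sphingomyelin synthase gene, fell by 0.97 ± 0.28 on the log2 scale. Its edgeR adjusted p of 0.0316 was 0.055 to 0.102 when PSNPs replicate 2 or any 1 IR-813 library was left out, and it spanned 0.00396 to 0.102 over 12 alternatives. For the enzymes that fell, bulk RNA does not show which cells made them. The enzymes named among the rises act in many cell types. They were Kdsr, of the first steps of ceramide synthesis (0.73 ± 0.10), and Arsa, the lysosomal sulfatidase (0.49 ± 0.10, edgeR adjusted p = 0.00889, 0.0512 without IR-813 replicate 2, and spanning 0.000753 to 0.0512 over 12 alternatives). Pmp2, which encodes a fatty acid binding protein of peripheral myelin, rose by 1.45 ± 0.14 at a low level, 9.09 ± 0.772 CPM with PSNPs and 3.32 ± 0.306 CPM with IR-813 (SD, n = 3 each). The counts of this list depended on single libraries: 4 were lower without PSNPs replicate 2, without IR-813 replicate 2 or without IR-813 replicate 3, and 3 were higher without IR-813 replicate 2. Over all tested genes, leaving out 1 library gave 1473 to 3478 lower and 1339 to 3591 higher.

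Genes of earlier stages of the lineage were also counted, beside 20.1% lower and 20.9% higher over all tested genes. Of 13 tested genes of newly formed oligodendrocytes, 9 were lower, 1 was higher and 3 did not pass, with a median of −0.88. Gpr17, an orphan receptor gene of cells about to mature, had 9.15, 9.87 and 4.28 CPM with PSNPs, against 49.3, 53.1 and 64.8 CPM with IR-813 (−2.84 ± 0.30, edgeR adjusted p = 0.000656). Bmp4, a growth factor gene, was at −2.26 ± 0.22 and Bcas1 at −1.90 ± 0.09, while Tmem2, which encodes a hyaluronidase that many cells make, rose by 1.01 ± 0.18. Of 13 tested progenitor genes, 7 were lower, 1 was higher and 5 did not pass, with a median of −0.70. Matn4, a matrix protein gene, was at −3.40 ± 0.29, the growth factor receptor gene Pdgfra at −1.73 ± 0.18 and the proteoglycan gene Cspg4 at −1.45 ± 0.13. Cspg5, another proteoglycan gene, which neurons and astrocytes also make, rose by 0.52 ± 0.11. The cells that made the genes that fell cannot be told from bulk RNA either. Without PSNPs replicate 3 the count of higher progenitor genes was 5. Of 13 tested maturation factors, 7 were lower and 1, Olig1, was higher, with a median of −0.66, and Nkx2-2, which promotes differentiation, was at −1.91 ± 0.14. By edgeR's test the adjusted p of these genes lay between 7.02e-05 and 0.0089.

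**Figure D5:**
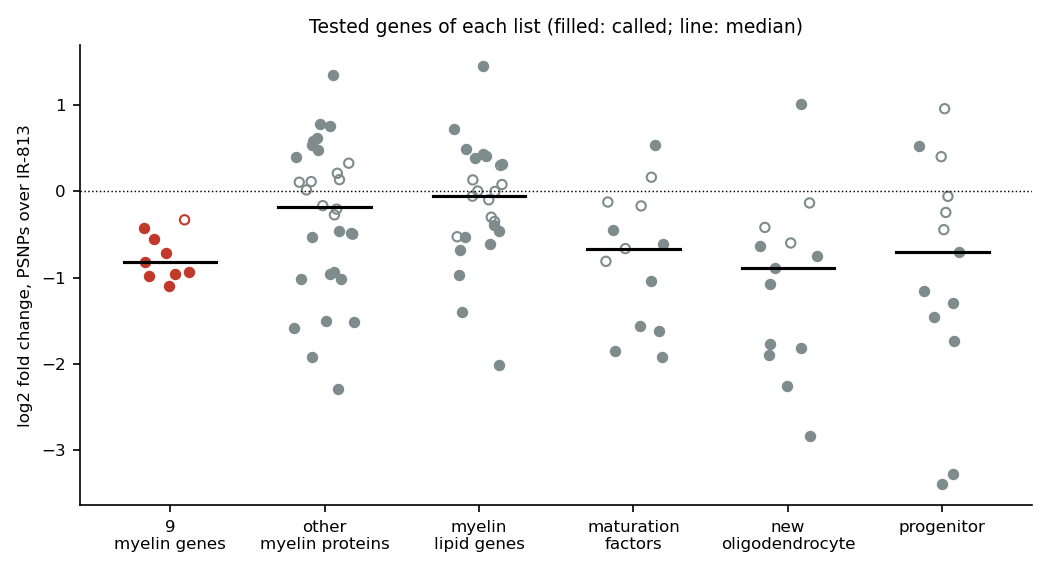
Log2 fold change of PSNPs over IR-813 (vertical axis) for the tested genes of 6 lists; each point is a gene, filled where called, and the black line is the median of the list. The 9 myelin genes lie in a narrow band below 0 around −0.81, whereas the lists of other myelin proteins and of lipid genes spread on both sides of 0 and those of newly formed oligodendrocytes and progenitors reach below −2.5.

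Schwann cells, the myelinating cells of peripheral nerve, also make several of the 9 proteins, and their own markers were checked. Ncmap had 0 counts in all 6 libraries. The 10 Schwann cell markers together reached 87.0 to 105.5 CPM with PSNPs and 112.5 to 120.4 CPM with IR-813. Of 7 tested 4 were lower and 1 higher, beside 20.1% lower and 20.9% higher over all tested genes.

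Among 7171 genes outside these lists with a mean of at least 20 CPM over the IR-813 libraries, 5 had the profile nearest to the median profile of the 9 myelin genes. The measure was the root mean square difference of centred log2 CPM over the 6 libraries. They were Lgi3 (0.042), Acsf2 (0.045), Dpysl4 (0.0509), Apobec1 (0.0517) and Ccnjl (0.053), and their log2 fold changes lay between −0.78 and −0.72. Of the members, Opalin (0.259) and Mobp (0.226) lay farthest from the median profile, of which the members themselves are part. With so many candidates and 6 libraries, near profiles are a description only.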

How the data were processed

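RNA was measured in 6 libraries, 3 with PSNPs and 3 with IR-813, grouped by their titles. The authors deposited whole-number read counts per gene symbol and, per library, log2 values with no stated scaling. Per the submitters' processing notes, bcl2fastq and the build mRatBN7.2 were used. The aligner, counter, annotation and strandedness were not given in the sources used here. Counts shared with overlapping or antisense genes therefore could not be told apart. With a pseudocount of 1 removed, the deposited log2 values of at least 99.0% of 10559 genes per library equalled the count divided by a gene factor and a library factor, to within 0.05 on the log2 scale. That gene factor is used as a stand-in for length.

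Counts were filtered with filterByExpr, scaled with TMM and fitted for all genes with the quasi-likelihood test of edgeR 4.0.16 in R 4.3.3, with treatment as the only term and Benjamini-Hochberg adjustment. Genes with an adjusted p under 0.05 were called. The SE is the size of the log2 fold change divided by the square root of F, and confidence intervals use the t distribution with the fit's degrees of freedom. The common biological coefficient of variation was 0.159. The fit was tested on simulated data. Counting errors (1 over the square root of the count) do not cover reads that are copies of one molecule.

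Alternatives were DESeq2 1.42.0, limma 3.58.1, other scalings, no filter, a replicate block and each library left out. Named genes were the members, Olig1, Olig2, Sox10, Myrf, and up to 3 called genes with the largest falls and rises per list among those with at least 5 CPM in a group. Another gene chosen for naming is not reported here. Listed genes with no row in the count table were not analysed here. The members and lists were chosen with earlier results of these data known.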

Additional observations from a re-analysis of the deposited data

How the results depend on the processing

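The 9 members were lower in every alternative in point estimate, with 12 alternatives each, and 6 of the 9 kept their side of the threshold in all of them. Among the other 25 named genes 23 did so, with the same direction throughout. The number of members called lower was 8 with library size only, with DESeq2 size factors, by DESeq2, without the filter and with the replicate block, and 7 by limma on the deposited log2 values. It was 5 to 8 when 1 library was left out, while 0 were higher. The median of the 9 lay between −0.92 and −0.70 when 1 library was left out and was −0.65 on the deposited log2 scale. Scaling by library size without TMM called 1943 genes higher and 2852 lower, a share of 40.5% higher in place of 50.9% (2439 and 2351). Leaving out 1 library gave 1339 to 3591 higher and 1473 to 3478 lower genes. It gave 4 to 10 lower and 3 to 10 higher lipid genes and 1 to 5 higher progenitor genes. DESeq2, on all 6 libraries, gave 2 higher progenitor genes. The causes were not tested.

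The ratio of the myelin genes to the lineage factors (−0.77) turned to 1.23 with Sox10 alone and was −0.18 with Olig2 alone. In the summed factors Olig1, which rose, is the largest part. The ratio was −1.09 without Mbp in the sum, and between −0.80 and −0.74 when 1 library was left out. The share of Mobp, lower by 0.0516 percentage points with PSNPs, was higher by 0.0117 without PSNPs replicate 3, and the difference ran from −0.0983 to 0.0117 when 1 library was left out.

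The replicate numbers do not pair the libraries by any label. Deviations of same-numbered libraries correlated at −0.00585, 0.0145 and 0.121 across genes, and 1 of 3 PSNPs libraries correlated best with its own number. With the replicate block 2035 genes were higher and 2124 lower. Depth limited Mal and Opalin, with 23 to 65 counts per library.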
